A study of Mus musculus with 6 samples.

Results

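Cells make cholesterol from acetyl-CoA through the mevalonate pathway, and make saturated and unsaturated fatty acids from the same precursor. Both routes are governed by the sterol regulatory element-binding proteins (SREBPs), which are held in the endoplasmic reticulum by INSIG proteins through their escort SCAP and, when membrane sterol is low, are released to switch on the enzyme genes together. Cholesterol is an abundant lipid of neural membranes, and polyunsaturated fatty acids made by the FADS desaturases and ELOVL elongases accumulate in neural tissue.

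The genes described here are 32 listed members of these routes, taken by symbol for their role in the pathway, with no threshold on a measured value. A member was measured by a probe set whose only gene symbol is that member, and where a gene had more than 1, the one brightest on average over the 6 arrays was used. This gave 29 of 32 members, among 22180 genes in all: 16 of 18 sterol enzymes, all 6 regulators and carriers, and 7 of 8 fatty acid enzymes. Acat2 had no such probe set, and those of Idi1 and Scd2 carried several symbols, so these 3 were not analysed here. Scap alone had more than 1 probe set. All 29 lay above the array median of 39.6 to 41.4 on every array, with intensities from 54.4 to 2187.

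Mouse embryonic stem cells had been infected with lentivirus carrying a short hairpin RNA (shRNA): control shRNA, Chd4 shRNA or Mbd3 shRNA. CHD4 and MBD3 are subunits of the nucleosome remodeling and deacetylase (NuRD) complex. Each line was sampled at day 0, as stem cells on gelatin in serum medium with LIF, and at day 4, after neural differentiation as aggregates in low-adhesion plates in medium with knockout serum replacement. The 6 groups hold 1 array each, so no group has a replicate; the labels leave unsaid how many cultures a sample came from. Day, culture form and medium change together, so their shares in a difference between the days cannot be told apart. In bulk RNA, fewer cells of a type and less RNA per cell cannot be told apart either.

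On the targeted genes, Chd4 stood at 29.8% of control at day 0 and 71.3% at day 4 in the Chd4 knockdown, and Mbd3 at 43.0% and 75.5% in the Mbd3 knockdown. All 12 pluripotency markers lay at or above the array median on every array. Their summed intensity was 10655 to 12594 at day 0 in the 3 lines, 3541 in control at day 4, and 7576 and 7043 in the Chd4 and Mbd3 knockdowns at day 4. The sum of 12 early neural markers was 632 to 793 at day 0, 7090 in control at day 4, and 1098 and 1577 in the knockdowns at day 4. The lines differed in these marker sums at day 4, and the part of this in the lipid gene differences below was not tested. Of 8 fibroblast markers, Postn, Lum, Dcn and Twist2 were below the array median on every array, and of 8 endoderm markers Afp, Ttr and Cubn were. The summed intensity over the arrays was 317 to 428 for the fibroblast and 372 to 550 for the endoderm list. Some endoderm markers differed between the lines at day 4, in either direction. Dab2 was 137 in control, 236 with Chd4 shRNA and 219 with Mbd3 shRNA. In the same order Gata6 was 29.0, 64.4 and 29.9, and Foxa2 was 116, 66.3 and 83.8. Of those compared, 2 were higher and 2 lower than control with Chd4 shRNA, and 2 higher and 1 lower with Mbd3 shRNA.

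In control cells 15 of 16 sterol enzymes were higher at day 4 than at day 0, all but Ebp, where 6943 of 13830 genes compared were higher. At day 4, 14 of 16 stood lower than control in the Chd4 knockdown, all but Ebp and Fdft1, where 7406 of 13734 genes were lower. In the Mbd3 knockdown 15 of 16 were lower, all but Ebp, where 7601 of 13588 genes were. The geometric mean intensity of the 16 enzymes was 232 in control at day 0 and 375 at day 4, against 218 and 255 in the Chd4 knockdown and 195 and 250 in the Mbd3 knockdown. The 3 lines were close in level at day 0, and the control array stood apart at day 4. The 7 fatty acid enzymes went from 521 to 868 in control, from 429 to 630 in the Chd4 knockdown and from 447 to 631 in the Mbd3 knockdown.

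**Figure D1:**
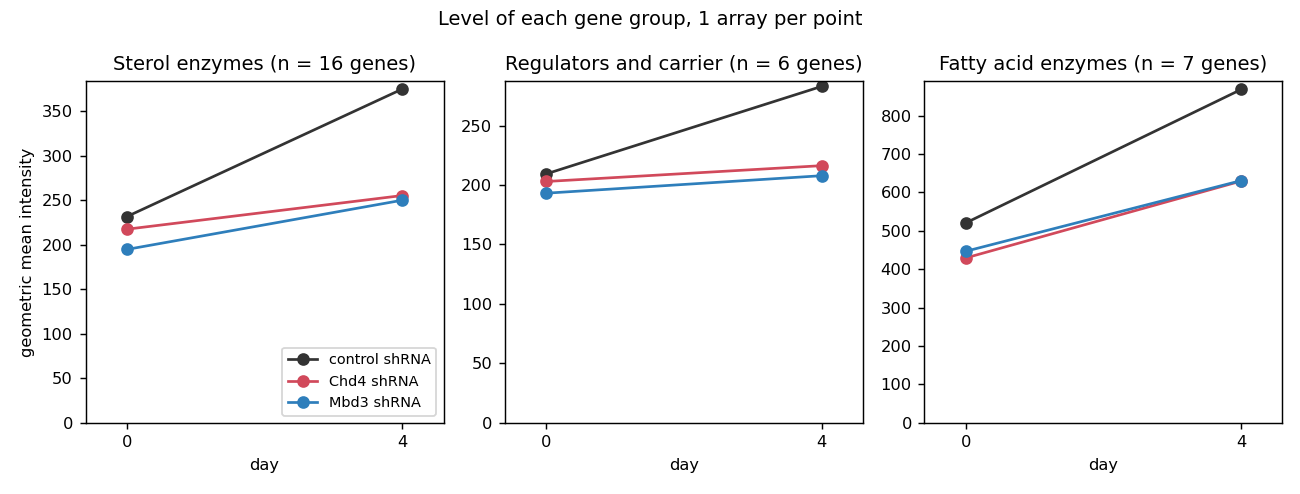
Geometric mean intensity (linear axis from 0) of the sterol enzymes, the regulators with the carrier Stard4, and the fatty acid enzymes at day 0 and day 4. Each point is 1 array and each line joins the arrays of 1 shRNA; in all 3 panels control at day 4 is the highest point, at 375 for the sterol enzymes against 250 to 255 in the knockdowns.

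In control cells, 6 of 16 sterol enzymes were at least 2-fold higher at day 4 and 0 were at least 2-fold lower, where 8.13% of 13830 genes compared were that much higher and 4.70% that much lower. The median log2 difference of the enzymes was 0.81, against 0.0027 over all genes compared, and 15 of 16 were higher, where 6943 of 13830 genes were. Cyp51 was the largest, then Sc5d, Msmo1 and Hmgcs1; Dhcr7 and Hsd17b7, both at 2.00-fold, sat on the threshold.

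The first committed steps were uneven. Hmgcs1, which makes HMG-CoA, had an intensity of 996 in control at day 0 and 2187 at day 4, 1197 on both Chd4-knockdown arrays, and 881 and 1226 in the Mbd3 knockdown at day 0 and day 4. Only the control array at day 4 stood apart: the other 5 lay between 881 and 1226. The kinases and the decarboxylase that turn mevalonate into isopentenyl units varied little. Mvk ranged from 89.6 to 122 over the 6 arrays, Pmvk from 129 to 174 and Mvd from 169 to 214, and each was slightly higher at day 4 in control and slightly lower at day 4 in both knockdowns.

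Farnesyl diphosphate is made by FDPS and joined into squalene by squalene synthase, the product of Fdft1. Fdps was 293 and 361 in control, 270 and 328 in the Chd4 knockdown and 224 and 304 in the Mbd3 knockdown at day 0 and day 4, with day differences of 0.30, 0.28 and 0.44 on the log2 scale in the 3 lines. Fdft1 was 788 and 1060 in control and 922 and 1096 in the Chd4 knockdown, but 400 and 922 in the Mbd3 knockdown. The Mbd3-knockdown array at day 0 was the single low one, at 50.7% of control.

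Squalene is oxidised by squalene epoxidase (Sqle) and cyclised by lanosterol synthase (Lss). Sqle was 276 and 488 in control, 250 and 320 in the Chd4 knockdown, and 225 and 346 in the Mbd3 knockdown. Lss was 260 and 454 in control, 234 and 316 in the Chd4 knockdown and 274 and 277 in the Mbd3 knockdown. For both, control at day 4 was above the other 5 arrays.

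The later enzymes, which strip and rearrange the sterol ring on the way to cholesterol, held most of the large differences. Cyp51, the lanosterol demethylase, was 148 and 406 in control, 150 and 200 in the Chd4 knockdown and 94.3 and 188 in the Mbd3 knockdown. Msmo1, the C4 methyl oxidase, was 204 and 503 in control, 204 and 250 in the Chd4 knockdown and 154 and 258 in the Mbd3 knockdown. Sc5d, the C5 desaturase, was 210 and 570 in control, 282 and 285 in the Chd4 knockdown and 192 and 317 in the Mbd3 knockdown. In each of these 3 genes the control array at day 4 was the highest and no knockdown array reached it.

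Nsdhl, which removes carboxylated C4, was 432 and 778 in control, 427 and 439 in the Chd4 knockdown and 334 and 455 in the Mbd3 knockdown. Tm7sf2, a C14 reductase, was 95.6 and 159 in control, 83.7 and 88.7 in the Chd4 knockdown and 81.4 and 94.3 in the Mbd3 knockdown. Both repeated the pattern of a single high array. Hsd17b7, the C3 ketoreductase, was 85.4 and 171 in control, 54.4 and 95.4 in the Chd4 knockdown and 67.4 and 92.7 in the Mbd3 knockdown. Dhcr7, which reduces 7-dehydrocholesterol, was 345 and 690 in control, 215 and 340 in the Chd4 knockdown and 274 and 406 in the Mbd3 knockdown. For these last genes the knockdowns were already below control at day 0, and were higher at day 4 than at day 0.

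Ebp, the sterol isomerase, did not follow the others. It was 193 in control at day 0 and 112 at day 4, and 199 and 121 in the Mbd3 knockdown, but 133 and 209 in the Chd4 knockdown. It was the 1 sterol enzyme lower at day 4 in control, with log2 differences between the days of -0.78 there, -0.72 with Mbd3 shRNA and 0.65 with Chd4 shRNA.

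**Figure D2:**
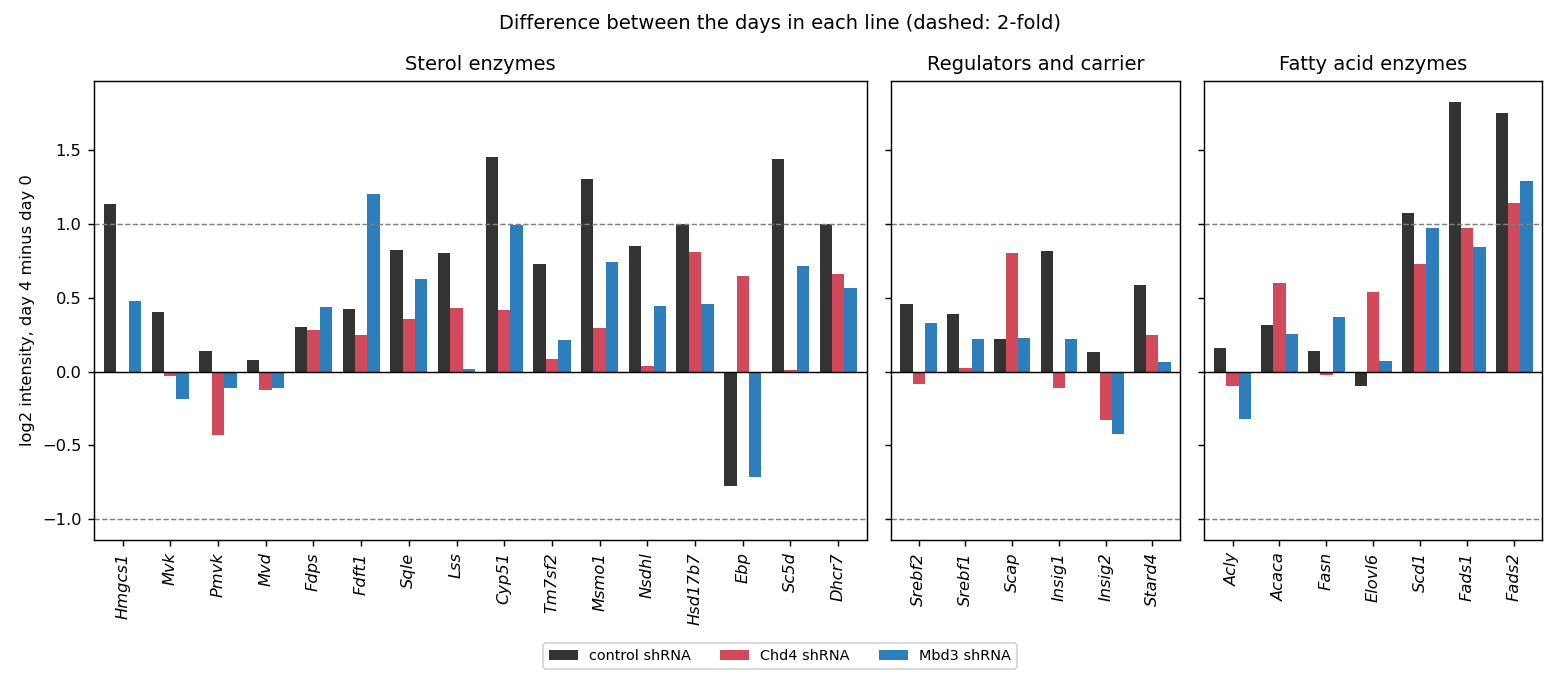
Log2 intensity at day 4 minus day 0 for each gene in the control, Chd4 shRNA and Mbd3 shRNA lines; dashed lines mark 2-fold, and each bar is the difference of 2 arrays, with no replicate. Control bars pass 2-fold for 6 sterol and 3 fatty acid enzymes, and Ebp points down in control and in the Mbd3 line and up in the Chd4 line.

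In the knockdown lines fewer sterol enzymes passed 2-fold upward between the days than in control. The share of all genes compared was also smaller, at 1.70% and 1.60% against 8.13%. At these shares, counts of 0 or 1 of 16 are near the background. The interaction test, given further on, called none of the sterol enzymes. In the Chd4 knockdown 0 of 16 sterol enzymes were at least 2-fold higher at day 4, where 1.70% of 13407 genes were. Also 0 were that much lower (1.16% of genes). The median log2 difference was 0.27, and 12 of 16 were higher, where 6506 of 13407 genes were. In the Mbd3 knockdown 1 of 16, Fdft1 at 2.31-fold, was at least 2-fold higher, where 1.60% of 13348 genes were. Again 0 were that much lower (1.11%). The median was 0.45, and 12 of 16 were higher, where 6104 of 13348 genes were. Cyp51 in the Mbd3 knockdown, at 2.00-fold, lay just under the threshold, with a log2 difference of 0.997.

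The pairs of arrays in the 3 lines share no array, so the direction could be read in each apart. Of the 16 sterol enzymes 11 were higher at day 4 in all 3 lines, as were 3 of 6 regulators and 4 of 7 fatty acid enzymes, where 20.2% of the 12926 genes tested in the fits were. The sterol enzymes that were not were Hmgcs1, Mvk, Pmvk, Mvd and Ebp. Control at day 4 was the highest of the 6 arrays for 13 of 16 sterol enzymes, against 33.2% of genes; the exceptions were Pmvk, Fdft1 and Ebp. The 11 members that were not higher in all 3 lines also include Srebf2, Insig1, Insig2, Acly, Fasn and Elovl6.

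Promoter sequences were set beside these values because most of the sterol enzymes were high on the same array. RefSeq promoter windows (GRCm38.p6, 250 bases before to 50 after the transcript start) were held for 23 of the 29 members; Fdps, Fdft1, Sqle, Stard4, Scd1 and Fads1 had none. The NF-Y box CCAAT, read on both strands as CCAAT or ATTGG, binds NF-Y, a known partner of SREBPs. It stood in the window of 13 of 13 sterol enzymes, 4 of 5 regulators and 2 of 5 fatty acid enzymes, against 42.5% of 10133 genes tested in the fits that have a window. The Sp1 box GGGCGG (or CCGCCC) was in 12 of 13 sterol enzymes, 5 of 5 regulators and 2 of 5 fatty acid enzymes, against 68.3%. The sterol regulatory element, searched only in the form TCACNCCAC (or GTGGNGTGA), was in 1 of 23 members, Hmgcs1, against 1.40%. Elements that depart from these letters were not searched, so the lack of a match does not show that a promoter lacks such an element. These are matches of letters in a short window, not measured binding; a gene with several windows counts once if any holds the motif, and matches to different motifs may share bases at their ends.

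The sequences below run up to the base before the transcript start and are written in the direction of the gene. Capitals mark CCAAT or ATTGG boxes and exact matches to TCACNCCAC only. Hmgcs1 is shown because it holds the only match to TCACNCCAC among the members with a window. Cyp51, Msmo1, Sc5d and Tm7sf2 are examples of the 13 of 16 sterol enzymes in which the control array at day 4 stood above the other 5. These genes were picked after their values were seen. Mvk, Pmvk and Mvd, which varied little, and Ebp, lowest in control at day 4, also hold a CCAAT or ATTGG box. Whether the boxes go with the values was not tested. Fads2 is shown as a fatty acid gene with a large difference between the days and no such box.
Hmgcs1 (GRCm38.p6, chr13:119690151-119690350, plus strand): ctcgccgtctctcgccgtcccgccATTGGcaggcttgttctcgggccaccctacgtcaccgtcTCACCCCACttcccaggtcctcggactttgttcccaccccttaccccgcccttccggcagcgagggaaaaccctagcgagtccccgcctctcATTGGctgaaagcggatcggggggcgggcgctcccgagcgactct
Cyp51 (GRCm38.p6, chr5:4104698-4104797, minus strand): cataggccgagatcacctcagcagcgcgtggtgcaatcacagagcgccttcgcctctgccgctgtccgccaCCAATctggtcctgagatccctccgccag
Msmo1 (GRCm38.p6, chr8:64733579-64733678, minus strand): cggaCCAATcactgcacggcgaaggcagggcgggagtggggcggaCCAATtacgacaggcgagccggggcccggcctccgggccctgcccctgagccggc
Sc5d (GRCm38.p6, chr9:42264301-42264400, minus strand): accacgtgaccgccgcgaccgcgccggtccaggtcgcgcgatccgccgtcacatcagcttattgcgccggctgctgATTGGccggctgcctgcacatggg
Tm7sf2 (GRCm38.p6, chr19:6067851-6067950, minus strand): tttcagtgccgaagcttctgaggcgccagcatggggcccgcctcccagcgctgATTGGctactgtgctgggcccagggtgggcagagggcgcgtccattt
Fads2 (GRCm38.p6, chr19:10101504-10101603, minus strand): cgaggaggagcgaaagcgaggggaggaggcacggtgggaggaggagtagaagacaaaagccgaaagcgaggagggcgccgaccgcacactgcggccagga

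Among the regulators, Insig1 had the pattern of the later sterol enzymes, and the SREBP genes themselves varied less. Insig1, whose product retains SCAP and which is itself a known SREBP target, was 465 and 821 in control, 490 and 454 in the Chd4 knockdown and 345 and 401 in the Mbd3 knockdown. Stard4, a carrier that moves cholesterol between membranes, was 122 and 184 in control, 81.0 and 96.3 in the Chd4 knockdown and 102 and 106 in the Mbd3 knockdown. Both had a single high array, control at day 4. Srebf2, which encodes SREBP-2, the main activator of sterol genes, was 607 and 833 in control, 714 and 672 in the Chd4 knockdown and 571 and 718 in the Mbd3 knockdown, with control at day 4 the highest. Srebf1, which encodes SREBP-1, ranged from 117 to 161.

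Scap was highest in the Chd4 knockdown at day 4, at 284, and lowest in the same line at day 0, at 163. Insig2 ranged from 80.5 to 111, with both knockdowns at day 4 the lowest. In control 0 of 6 regulators were at least 2-fold higher or lower between the days, with a median log2 difference of 0.42; at 8.13% of genes higher and 4.70% lower, a count of 0 of 6 is near the background. It was also 0 of 6 in either knockdown (1.70% higher and 1.16% lower with Chd4 shRNA, 1.60% and 1.11% with Mbd3 shRNA), with medians of -0.031 for Chd4 and 0.22 for Mbd3.

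The fatty acid genes differed by step. The enzymes that build palmitate and extend it did not reach 2-fold between the days in any line. Acly, ATP citrate lyase, ranged from 817 to 1157 over the 6 arrays, Acaca, acetyl-CoA carboxylase, from 178 to 270, Fasn, fatty acid synthase, from 908 to 1173, and the elongase gene Elovl6 from 792 to 1487. The low Elovl6 and Acaca arrays were both the Chd4 knockdown at day 0, and in that line the day differences were 0.60 for Acaca and 0.54 for Elovl6 on the log2 scale. The desaturases had the largest day differences of the 7 in each line, although in the Chd4 knockdown Scd1, at 0.73, was not far above Acaca.

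Fads2, the delta-6 desaturase, had an intensity of 429 and 1447 in control at day 0 and day 4, 391 and 865 in the Chd4 knockdown, and 336 and 822 in the Mbd3 knockdown. Fads1, the delta-5 desaturase, was 267 and 951 in control, 215 and 423 in the Chd4 knockdown and 275 and 494 in the Mbd3 knockdown. Scd1, a delta-9 desaturase that makes monounsaturated fatty acids, was 310 and 653 in control, 214 and 355 in the Chd4 knockdown and 141 and 278 in the Mbd3 knockdown. Fads1, Fads2 and Scd1 were higher at day 4 in all 3 lines, as were 20.2% of genes tested in the fits. Control at day 4 was the highest of the 6 arrays for each, as it was for 33.2% of those genes. For Scd1 the Mbd3 knockdown at day 4 stayed below control at day 0.

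**Figure D3:**
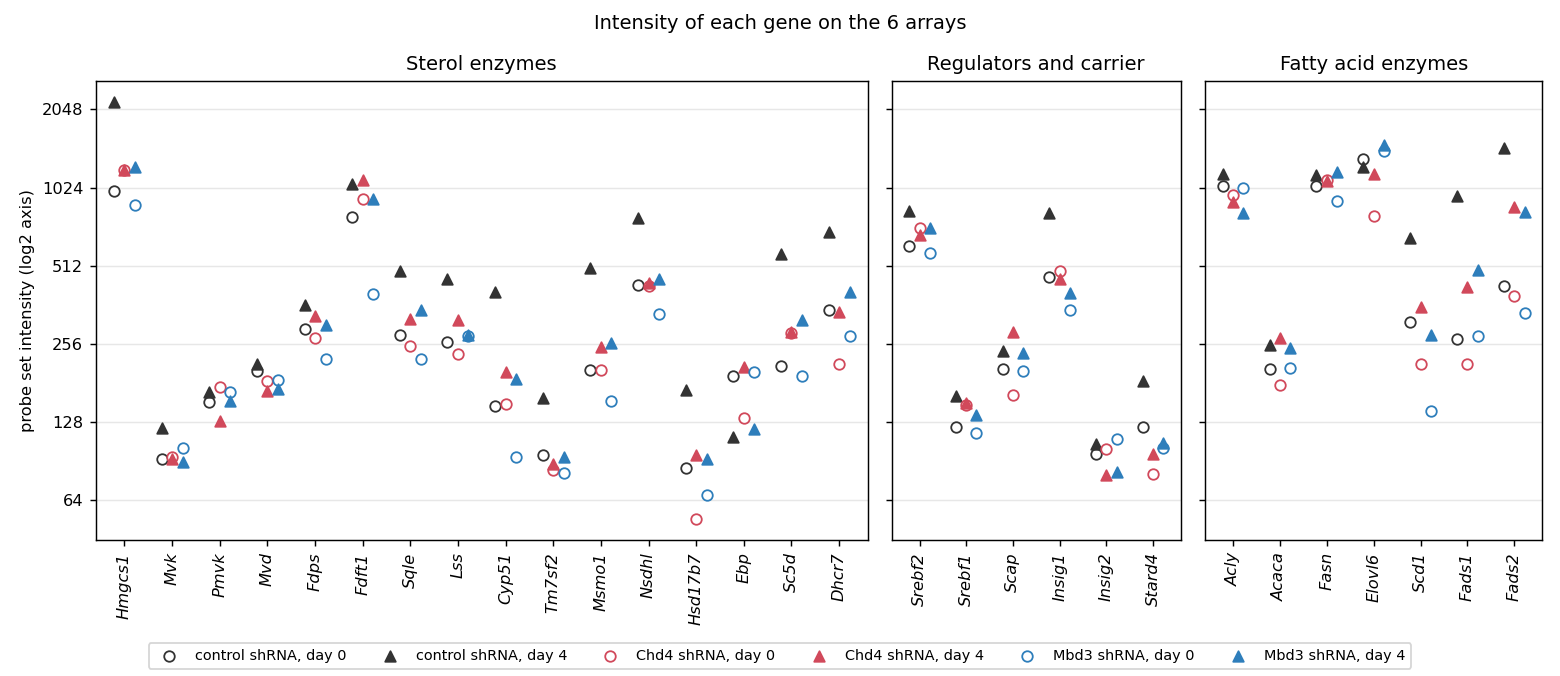
Probe set intensity (log2 axis) of the 29 genes on the 6 arrays, open circles for day 0 and filled triangles for day 4, coloured by shRNA. The black triangle, control at day 4, is the highest point for 21 of the 29 genes, and for Ebp it is the lowest point. For 18 of the 29 genes the triangle lies above the circle of the same colour in all 3 lines, as it would for 20.2% of genes tested in the fits.

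In control 3 of 7 fatty acid enzymes, Fads1 (3.56-fold), Fads2 (3.38-fold) and Scd1 (2.11-fold), passed 2-fold upward between the days and 0 passed it downward, where 8.13% and 4.70% of genes did. In both knockdown lines this was so for Fads2 alone, at 2.21-fold with Chd4 shRNA (1.70% of genes higher by that size) and 2.45-fold with Mbd3 shRNA (1.60%). Fads1 in the Chd4 knockdown (1.97-fold) and Scd1 in the Mbd3 knockdown (1.97-fold) lay just under 2-fold. The median over the 7 was 0.31 in control, 0.60 with Chd4 shRNA and 0.37 with Mbd3 shRNA, below that of each desaturase in its line.

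A shared day difference over the 3 lines was tested with limma in an additive model of shRNA and day, with 2 residual degrees of freedom. At an adjusted p under 0.05 limma called 0 of 29 members and 0% of 12926 genes; at an unadjusted p under 0.05, 11 of 29 members were higher and 0 lower, where 7.98% of genes were higher. The lowest adjusted p among the members was that of Fads2, at 0.14, with a shared log2 difference of 1.40 (SE 0.16) and higher values at day 4 in 3 of 3 lines. In this model, unequal day differences in the 3 lines add to the error. In the knockdown lines alone limma called 4 members higher at day 4, where 3.04% of genes were: Fads2 (1.22, SE 0.14, adjusted p = 0.0046), Fads1 (0.91, SE 0.14, adjusted p = 0.012), Scd1 (0.85, SE 0.15, adjusted p = 0.017) and Dhcr7 (0.61, SE 0.14, adjusted p = 0.047). Here both knockdown lines stand as replicates of one another, so the p-values measure only how far they differ.

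Knockdown cells were next compared with control at day 4, where each comparison uses the same control array. In the Chd4 knockdown 4 of 16 sterol enzymes, Dhcr7, Cyp51, Msmo1 and Sc5d, were at least 2-fold lower, where 6.65% of 13734 genes were, and 0 were that much higher (5.07% of genes); the median log2 difference was -0.72 and 14 of 16 were lower. In the Mbd3 knockdown 1 of 16, Cyp51 at -1.11, was at least 2-fold lower, where 4.90% of 13588 genes were, and 0 were that much higher (3.44%); the median was -0.73 and 15 of 16 were lower. The medians over all genes compared were -0.039 and -0.057, and 7406 of 13734 and 7601 of 13588 genes were lower. Of the regulators Insig1 was at least 2-fold lower in the Mbd3 knockdown, at -1.03, and stood at -0.85 in the Chd4 knockdown. Of the fatty acid enzymes Fads1 was at least 2-fold lower in the Chd4 knockdown, at -1.17, and Scd1 in the Mbd3 knockdown, at -1.23.

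With both knockdowns pooled against control, limma with a term for knockdown, day and their interaction called 6 of 29 members lower at day 4, where 7.76% of 12926 genes were called lower. Its error is the spread between the Chd4 and Mbd3 arrays of a day, with 2 residual degrees of freedom and a single control array, so that no spread between cultures enters. The called genes were the C14 reductase gene Tm7sf2 (-0.80, SE 0.15, adjusted p = 0.028), Msmo1 (-0.99, SE 0.21, adjusted p = 0.037), Hsd17b7 (-0.86, SE 0.18, adjusted p = 0.039), the carrier gene Stard4 (-0.86, SE 0.19, adjusted p = 0.045), Fads1 (-1.05, SE 0.21, adjusted p = 0.033) and Fads2 (-0.78, SE 0.17, adjusted p = 0.040). Against the same control array these 6 stood between -0.74 and -1.17 on the Chd4-knockdown array and between -0.75 and -0.97 on the Mbd3-knockdown array. All 6 calls were lost without the Chd4-knockdown array at day 4 and also without the Mbd3-knockdown array at day 4, when the estimates are those single-array differences and the lone array is assumed to vary like the others. Leaving out a knockdown array leaves 1 residual degree of freedom, and leaving out a control array keeps 2. Without either day 0 knockdown array more members were called. Calls remained for Fads1 and Tm7sf2 with 16 subtracted from each intensity, and for Tm7sf2 alone without the filter on low values. With an intensity trend in limma's eBayes step 8 members were called: Stard4 was lost, and Dhcr7, Hmgcs1 and Nsdhl were added. With arrays centred on their medians 7 were called, these 6 and Nsdhl.

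Just outside the threshold stood Dhcr7 (-0.89, SE 0.21, adjusted p = 0.053), Nsdhl (-0.80, SE 0.19, adjusted p = 0.055), Hmgcs1 (-0.85, SE 0.22, adjusted p = 0.062) and Insig1 (-0.94, SE 0.24, adjusted p = 0.064). Cyp51, with the largest estimate at -1.07, had an SE of 0.29 and an adjusted p of 0.070. At an unadjusted p under 0.05, 17 of 29 members were lower and 0 higher, where 17.7% of genes were lower; by group these were 11 of 16 sterol enzymes, 2 of 6 regulators and 4 of 7 fatty acid enzymes. Srebf2 (-0.26, SE 0.19), Srebf1 (-0.17, SE 0.20), Fasn (-0.024, SE 0.18) and Acaca (0.021, SE 0.17) had estimates within 1.5 times their error. Control was the highest of the 3 arrays at day 4 for 14 of 16 sterol enzymes, 5 of 6 regulators and 4 of 7 fatty acid enzymes, against 46.1% of genes. At the same arrays 11 of 12 early neural markers were called lower and 7 of 12 pluripotency markers called higher by limma at an adjusted p under 0.05.

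**Figure D4:**
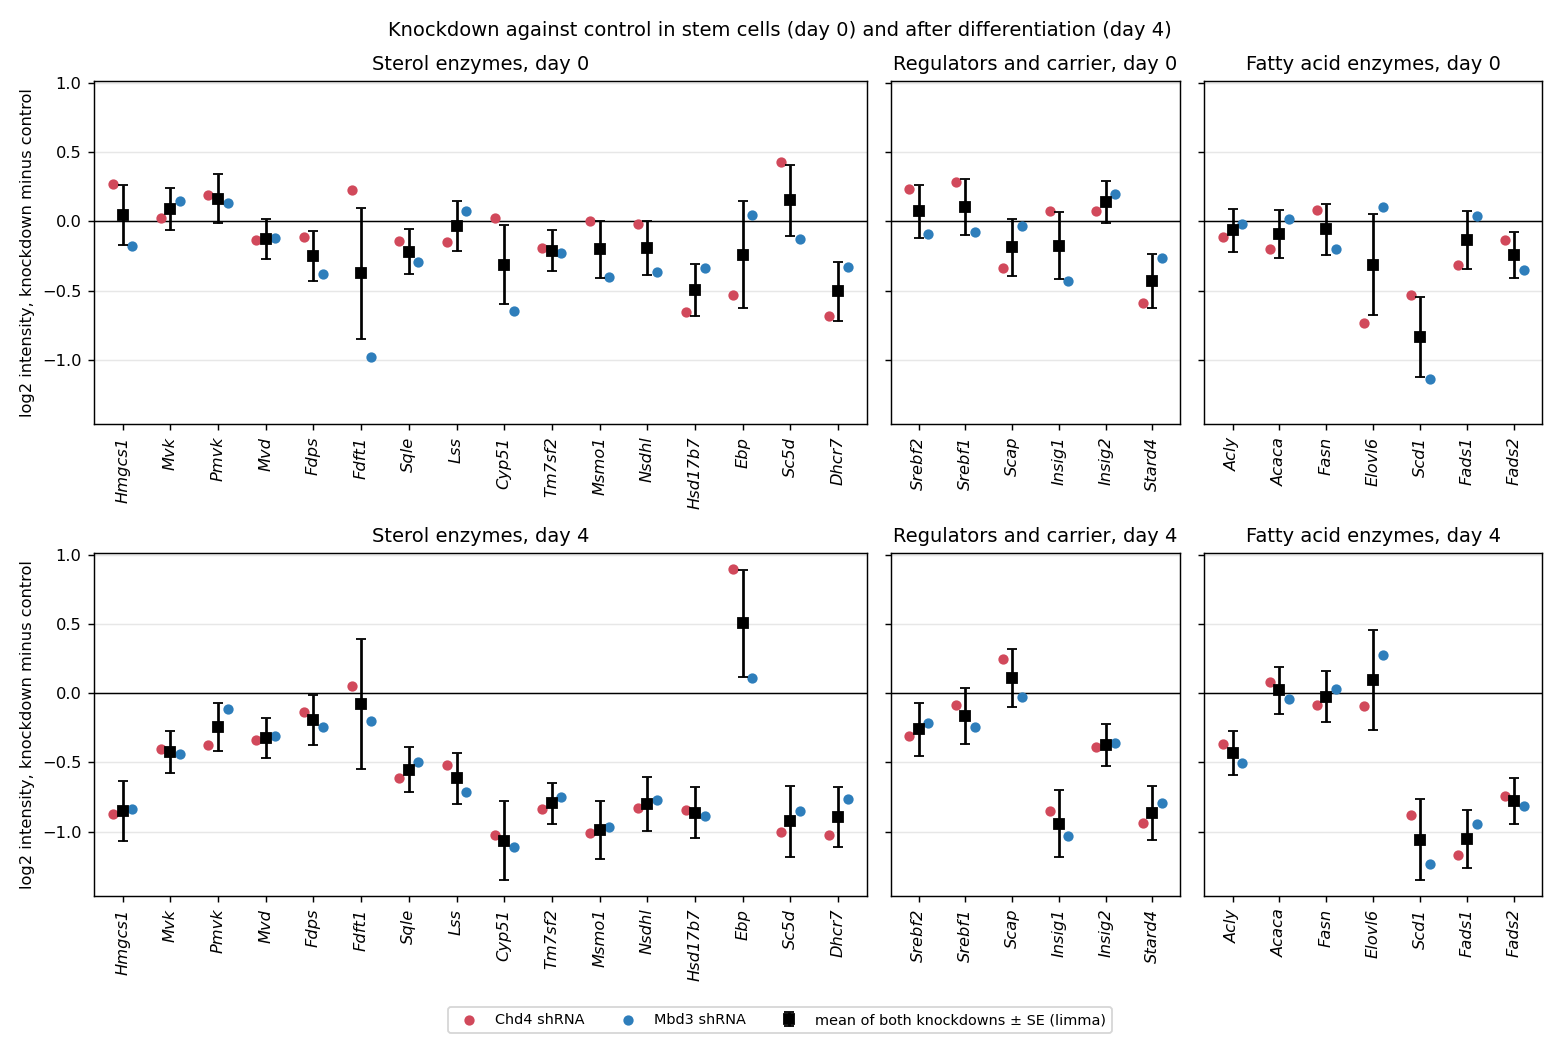
Log2 intensity of each knockdown minus control at day 0 (top) and day 4 (bottom); coloured points are single arrays against the control array of that day, and black squares with bars are the limma mean of both knockdowns ± SE. At day 4 the squares of Tm7sf2, Msmo1, Hsd17b7, Stard4, Fads1 and Fads2 lie between -0.78 and -1.05; at day 0 the lowest square is that of Scd1, at -0.84.

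At day 0 the differences were smaller. In the Chd4 knockdown 0 of 29 members were at least 2-fold higher or lower than in control, where 0.692% and 0.565% of 13445 genes were. Elovl6 at -0.73, Dhcr7 at -0.68 and Hsd17b7 at -0.65 were the lowest, and Sc5d at 0.43 the highest. In the Mbd3 knockdown 1 of 29 was at least 2-fold lower, Scd1 at -1.14, where 0.314% of 13388 genes were, and 0 were that much higher (0.366%). Fdft1 followed at -0.98, then Cyp51 at -0.65. The median over the 16 sterol enzymes was -0.065 with Chd4 shRNA and -0.26 with Mbd3 shRNA.

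The Mbd3 knockdown was the lowest of the 3 arrays at day 0 for 9 of 16 sterol enzymes, 3 of 6 regulators and 3 of 7 fatty acid enzymes, against 31.1% of genes. Control was the highest of the 3 for 8, 2 and 3 of them, against 33.7% of genes. The knockdowns differed most from each other in Fdft1 and Elovl6, with log2 differences of 1.21 and -0.84 for Chd4 minus Mbd3. For both knockdowns together limma called 0 of 29 members and 0% of genes at day 0; at an unadjusted p under 0.05, 2 members, Hsd17b7 and Scd1, were lower, where 2.61% of genes were.

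Whether the day difference itself departed between the knockdown lines and control was tested by the interaction term of the same fit. At an adjusted p under 0.05 limma called 0 of 29 members, where 1.76% of 12926 genes were called lower; at an unadjusted p under 0.05, 5 members were lower, where 13.3% of genes were. These were Sc5d (-1.08, SE 0.36, adjusted p = 0.17), Fads1 (-0.92, SE 0.30, adjusted p = 0.16), Hmgcs1 (-0.90, SE 0.31, adjusted p = 0.18), Msmo1 (-0.79, SE 0.29, adjusted p = 0.21) and Tm7sf2 (-0.58, SE 0.21, adjusted p = 0.20). The estimate was below 0 for 13 of 16 sterol enzymes, where it was for 52.6% of all genes tested. The median of the enzymes was -0.46, against -0.031 over all genes tested. The 5 members are 17.2% of the 29, near the share of all genes in this direction, and no single member passed after adjustment.

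Neighbouring routes, from lists of other pathway genes, were set beside the members. Of 14 genes of sterol handling and sensing compared, 0 were at least 2-fold higher or lower between the days in control (median 0.15). Over all genes compared 8.13% were that much higher and 4.70% that much lower, so 0 of 14 is near the background. At day 4 the sterol exporter gene Abcg1, a target of the oxysterol-sensing LXR receptors, had an intensity of 75.4 in control, 192 with Chd4 shRNA (2.54-fold) and 169 with Mbd3 shRNA (2.24-fold). Of 8 genes of the isoprenoid branches 0 passed 2-fold between the days in control, also near the background, with a median of 0.089.

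Among 21 other genes of fatty acid elongation, desaturation and activation compared, 3 passed 2-fold upward between the days in control and 0 downward. Over all genes compared 8.13% passed it upward and 4.70% downward. The elongase of polyunsaturated fatty acids Elovl2 was 80.9 at day 0 and 562 at day 4, a 6.95-fold difference, against 136 and 171 at day 4 in the Chd4 and Mbd3 knockdowns. Elovl4 was 3.53-fold and the dehydratase gene Hacd3 2.57-fold higher. At day 0 Elovl4 was 66.0 in control, 203 with Chd4 shRNA and 106 with Mbd3 shRNA. At day 4 it was 233, 157 and 190 in the same order. Of 14 fatty acid oxidation genes, 2 passed 2-fold downward between the days in control (4.70% of genes) and 0 upward (8.13%). These were Cpt1a, which admits fatty acids to mitochondria, at 229 and 60.5, and Acadm, an acyl-CoA dehydrogenase, at 1013 and 377. At day 4 Cpt1a was 5.69-fold above control with Chd4 shRNA and 3.61-fold with Mbd3 shRNA. It was already above control at day 0, at 584 and 351 against 229, and was lower at day 4 in both knockdowns, at 344 and 219. With Chd4 shRNA the carnitine carrier gene Slc25a20 and Acadm were 2.70-fold and 2.11-fold higher than control at day 4. With both knockdowns together limma called 2 of 14 oxidation genes higher at day 4 and 0 lower, and 2 of 20 elongation genes higher and 2 lower, where 4.22% of genes were called higher and 7.76% lower.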

How the data were processed

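Arrays (Mouse Gene 2.0 ST) were analysed by the authors in GeneSpring GX 12.6.1, per the labels' series text, and RMA is named in the submitters' processing notes without a version. The deposited values are probe set intensities on a linear scale (17.4 to 7980). The array annotation's genome build was not given in the sources used here, so genes carry no coordinates; promoter coordinates are RefSeq's. With an added constant the folds of dim genes would be shrunk, so 16 was subtracted in an alternative.

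Intensities were put on the log2 scale and not rescaled. Gene symbols were updated through RefSeq's GRCm38.p6 table. Among 34351 probe sets, 23521 carried 1 symbol, 1814 several and 9016 none. A gene entered a comparison of 2 arrays where the brighter value reached its array's median; such comparisons have no test. limma 3.58.1 (R 4.3.3) fitted the 12926 genes with a mean log2 value at or above the median of all values. Benjamini-Hochberg adjustment was over all of them. The day term of the additive fit and the interaction term were tested on simulated data. There fold sizes were recovered but 2-fold changes were not called. The comparisons of both knockdowns with control at day 0 and day 4 were not simulated. An absent call does not show that a gene did not differ. p-values measure only the spread between these arrays, which may be technical. The number of arrays limits the precision. Members, gene lists and tests were chosen with earlier results of these data known. All measured members are named; of other lists, up to 3 genes past 2-fold for each list and direction. Python 3.11.15, numpy 2.4.6 and pandas 2.3.3 were used. Alternatives changed the constant, scaling, filter, probe set rule, fold, eBayes trend and arrays used.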

Additional observations from a re-analysis of the deposited data

Results flagged for a closer look

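In 11 members the day difference had opposite signs in different lines. In Hmgcs1, Srebf2, Insig1 and Fasn the Chd4 knockdown alone was below 0, with differences down to -0.11 on the log2 scale. The other 7 are given here because control opposed both knockdown lines or because, in Ebp, opposite differences both exceeded 0.5; none of these differences between lines passed the interaction test of limma, and for Ebp, where the knockdown lines oppose each other, the difference was not tested. On the log2 scale Ebp differed by -0.78 in control, 0.65 with Chd4 shRNA and -0.72 with Mbd3 shRNA. In the other 6, control went one way and both knockdown lines the other, mostly by small amounts. Mvk differed by 0.40 in control and by -0.027 and -0.19 in the Chd4 and Mbd3 knockdowns. Pmvk differed by 0.14, -0.43 and -0.11, and Mvd by 0.078, -0.12 and -0.11, in the same order. Insig2 differed by 0.13, -0.33 and -0.43. Acly differed by 0.16, -0.099 and -0.33, and Elovl6 by -0.10, 0.54 and 0.071.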

How the results depend on the processing

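No paired analysis was possible because each group holds 1 array and the labels carry no replicate numbers, other than the additive fit, in which the shRNA line pairs its day 0 and day 4 arrays. With 16 subtracted before log2, the sterol enzymes past 2-fold numbered 1 in place of 0 (day difference, Chd4 knockdown), 2 in place of 1 (day difference, Mbd3 knockdown), 1 in place of 0 (Mbd3 against control, day 0) and 3 in place of 1 (Mbd3 against control, day 4). Under it the fatty acid enzymes past 2-fold between the days were 2 in place of 1 in each knockdown, the regulators lower in the Chd4 knockdown at day 4 were 1 in place of 0, and the members called in both knockdowns at day 4 were 2 in place of 6. With arrays centred on their medians, 2 fatty acid enzymes in place of 1 passed between the days in the Chd4 knockdown, and 2 sterol enzymes in place of 1 in the Mbd3 knockdown at day 4. With a threshold of 1.5-fold, which counts more genes by its construction, the sterol enzymes past it between the days were 11 in control, 3 with Chd4 shRNA and 6 with Mbd3 shRNA, and the fatty acid enzymes 4 and 3 in the knockdowns. The regulators past it between the days were 2 in control and 1 in the Chd4 knockdown. At day 0 against control, 2 sterol enzymes, 1 regulator and 1 fatty acid enzyme passed 1.5-fold in the Chd4 and 2 sterol enzymes in the Mbd3 knockdown; at day 4 these were 10, 2 and 3 in the Chd4 and 9, 2 and 3 in the Mbd3 knockdown. Without a filter on low values 1 member, Tm7sf2, was called at day 4, with 22180 genes tested.

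Leaving out 1 array at a time, the members called in both knockdowns at day 4 numbered from 0 (1 residual degree of freedom, without either day 4 knockdown array) to 13 (without either day 0 knockdown array), and the members called between the days in the additive fit from 0 to 4; 4 were also called without the control line. The additive fits without either control array and without the control line are the same fit, since a lone control array is taken up by its own line's term. At day 4 the runs without a day 0 knockdown array are likewise the same fit, with error from the day 4 knockdown arrays alone. Why the calls differ between the other runs was not tested. Small log2 differences of both knockdowns from control at day 4 took either sign with 1 array left out: Fdft1 ran from -0.20 to 0.049, Scap from -0.027 to 0.24, Acaca from -0.043 to 0.084, Fasn from -0.082 to 0.034 and Elovl6 from -0.092 to 0.28. With arrays centred, Acaca stood at -0.023. The limma fit called no member at day 0 or in the interaction under the alternatives in which these could be fitted. Over all genes, 643 in place of 383 and 643 in place of 362 passed 2-fold between the days in the Chd4 and Mbd3 knockdowns with 16 subtracted, 324 in place of 169 and 207 in place of 91 at day 0, and 1713 in place of 1134 for Mbd3 at day 4. limma called 1549 genes in both knockdowns at day 4, against 1005 without the filter, and 314 and 775 without the Chd4 or the Mbd3 array of that day; in the interaction it called 339, against 181 with 16 subtracted, 0 without the filter, 0 without the Chd4 array of day 0 or of day 4 or the Mbd3 array of day 4, and 450 without the Mbd3 array of day 0.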
